A study of Drosophila melanogaster with 13 samples.

Results

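The regions described here are binding sites of D. yakuba Caf40 (Dyak_Caf40) on the autosomes of D. melanogaster that carried no Zeus peak and lay next to another Caf40 peak. They were selected on the peak calls themselves. A member is a distinct Dyak_Caf40 peak on arm 2L, 2R, 3L, 3R or 4 that shared no base pair with a Dmel_Zeus or Dsim_Zeus peak and had another Dyak_Caf40 peak at a gap under 10 kb. By this rule there were 911 members among 1581 autosomal Dyak_Caf40 peaks, 57.6% of them, and among 3433 distinct peaks in the lists of all proteins. The other autosomal Dyak_Caf40 peaks were 400 isolated peaks without Zeus and 270 peaks that overlapped a Zeus peak.

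Each protein was expressed with an N-terminal FLAG tag from the ubiquitous Actin5C promoter of a piggyBac transgene in w1118 D. melanogaster, and tagged protein was pulled down from the chromatin of whole adults with an anti-FLAG antibody. The libraries comprised 4 immunoprecipitations and 1 input for Dyak_Caf40, 2 and 1 for Dmel_Zeus, and 4 and 1 for Dsim_Zeus, with 150 flies per library. Libraries of a protein were technical replicates of 1 genotype, and neither the age nor the sex of the flies was given. No source names a deletion of the host's own Caf40 or Zeus in these transgenic lines, so the tagged protein was an addition to them. Peaks from whole flies average over every tissue. The peaks of each protein were summarised in 1 list, without a value per library, so no difference below could be set against the spread between replicates and none was tested. Shares are given with 95% Wilson intervals, which cover counting error only. They count each peak as an independent event, which peaks of 1 cluster are not.

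Caf40, also named Rcd-1 in flies, is a subunit of the CCR4-NOT complex, which shortens the poly(A) tails of messenger RNA and also acts in transcription. Zeus is a retroposed copy of Caf40 that is expressed in the testis, and D. yakuba diverged before it arose. Dyak_Caf40 was therefore taken from a species without a Zeus gene. Chromatin immunoprecipitation enriches DNA that is bound by the tagged protein or by a complex that contains it, and a peak is an interval where such DNA was called above background.

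Caf40 peaks without Zeus were mostly gathered in groups. Of 1311 autosomal Caf40 peaks without Zeus, 911 met the rule, 69.5% (66.9 to 71.9). Among the 270 peaks that overlapped Zeus, 126 had a Caf40 neighbour under 10 kb, 46.7% (40.8 to 52.6). These shares follow in part from the rule and are a description. The gap of a member to its nearest Caf40 neighbour ranged from 50 to 9898 bp with a median of 516 bp, and 25% of members lay within 172 bp of a neighbour. A gap under 1000 bp was found for 553 members, or 60.7%, and a gap under 200 bp for 260. The isolated peaks had a median gap of 36.7 kb. Few peaks sat near the limit of the rule, with 13 members at 9 to 10 kb and 8 isolated peaks at 10 to 11 kb. The member just inside it, on 3R at 26618957 to 26619221, had a gap of 9898 bp, and the isolated peak just outside it, on 3R at 4665051 to 4665372, a gap of 10114 bp.

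**Figure D1:**
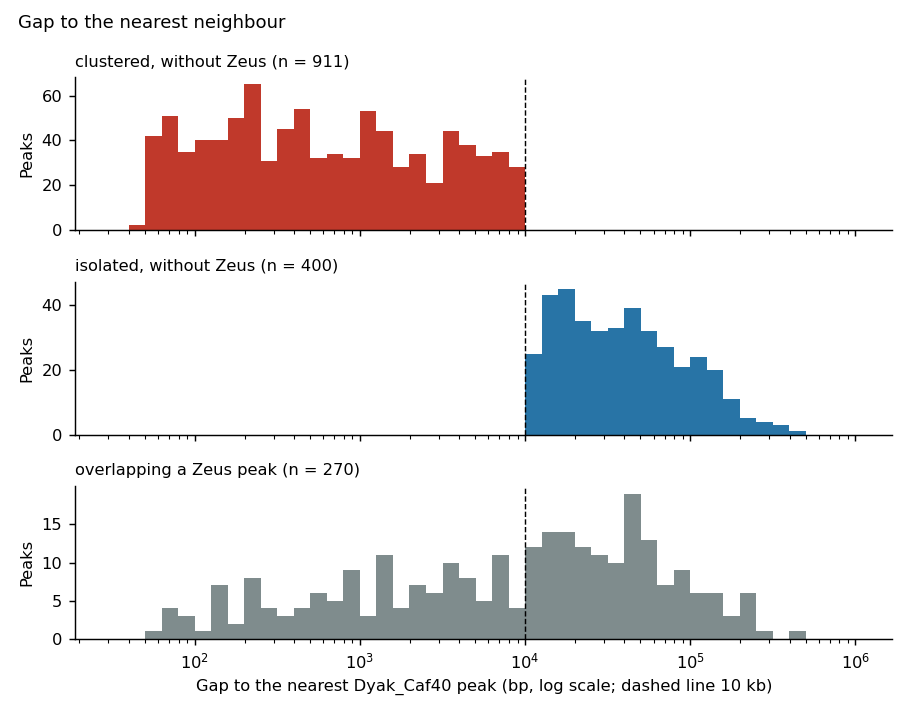
Gap of each autosomal Dyak_Caf40 peak to the nearest other Dyak_Caf40 peak (bp, log scale), as counts of peaks for the 911 clustered peaks without Zeus, the 400 isolated peaks without Zeus and the 270 peaks that overlapped Zeus. The clustered peaks spread from 50 bp up to the limit at 10 kb (dashed line), which the rule sets, and the Zeus-overlapped peaks fall on both sides of it.

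Chains of Caf40 peaks with gaps under 10 kb formed 306 clusters that held at least 1 member. A pair of peaks was the commonest size, in 157 clusters, 51.3%. There were 149 clusters of 3 or more peaks and 10 of 10 or more. The clusters with 10 or more peaks held 127 members, 13.9% of all, and the 3 with most members held 60. Clusters spanned 0.466 to 47.4 kb, with a median of 4.30 kb, and together 1.89 Mb, or 1.94% of the autosomal arms. Peaks covered a median of 34.7% of a cluster's span, from 4.63% to 97.4%. The most compact cluster, on 3L at 3741947 to 3742412, packed 2 peaks into 0.466 kb. The fullest, on 3L at 878573 to 881066, had 2 peaks over 97.4% of 2.49 kb. The 306 clusters thus held both near-continuous stretches and loose strings of peaks.

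The cluster with most members lay on 2L at 5154781 to 5202161 (dm3, counted from 1, as are all positions here). It held 28 Caf40 peaks in 47.4 kb, of which 27 had no Zeus. Between its 28 peaks, 16 of 27 gaps were under 500 bp, and the median gap was 319 bp. Gaps of 3807 and 4067 bp bounded a core of 17 peaks at 5159624 to 5172323, and 9 further peaks followed at gaps of 319 to 7961 bp. The single Zeus-overlapped peak lay in the core at 5168389 to 5169435. It was 1047 bp wide and had rank 460 by score among the 1581 autosomal Caf40 peaks. No member of this cluster ranked above it. The best were at 5167080 to 5167558 (rank 516), 5160402 to 5160766 (rank 517) and 5171659 to 5171967 (rank 529). The weakest was the first peak, at 5154781 to 5154994, with rank 1579. None of the 28 peaks was in the top-scoring 25% of autosomal Caf40 peaks, so the cluster with most peaks held no peak of high score.

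The next cluster, on 3L at 2065008 to 2106285, held 19 peaks in 41.3 kb and none of them met a Zeus peak. Its peaks were wide, with a median width of 586 bp against 336 bp for all autosomal Caf40 peaks. The highest score belonged to the peak at 2087816 to 2088397, with rank 271, and the next to that at 2085293 to 2085970, with rank 431. The last peak, at 2104971 to 2106285, was the widest at 1315 bp. The peaks fell into short runs, such as 5 peaks at 2065008 to 2069791, 6 at 2081780 to 2088397 and 5 at 2099290 to 2106285. The nearest Dmel_Zeus peak lay 122375 bp from this last peak. The nearest Dsim_Zeus peak was farther, 555706 bp from the nearest peak of the cluster, at 2065008 to 2065840.

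The cluster of rank 3, on 2R at 9750465 to 9778350, held 14 peaks in 27.9 kb, again without Zeus. At 9765770 to 9768546 there was a run of 4 peaks with gaps of 70, 235 and 93 bp, which contained its widest peak, of 1090 bp, at 9766180 to 9767269. Its best score was at 9767505 to 9768032, with rank 570. The first peak, at 9750465 to 9750765, lay 9194 bp before the next and ranked 1578. Without that link the cluster would begin at 9759960.

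**Figure D2:**
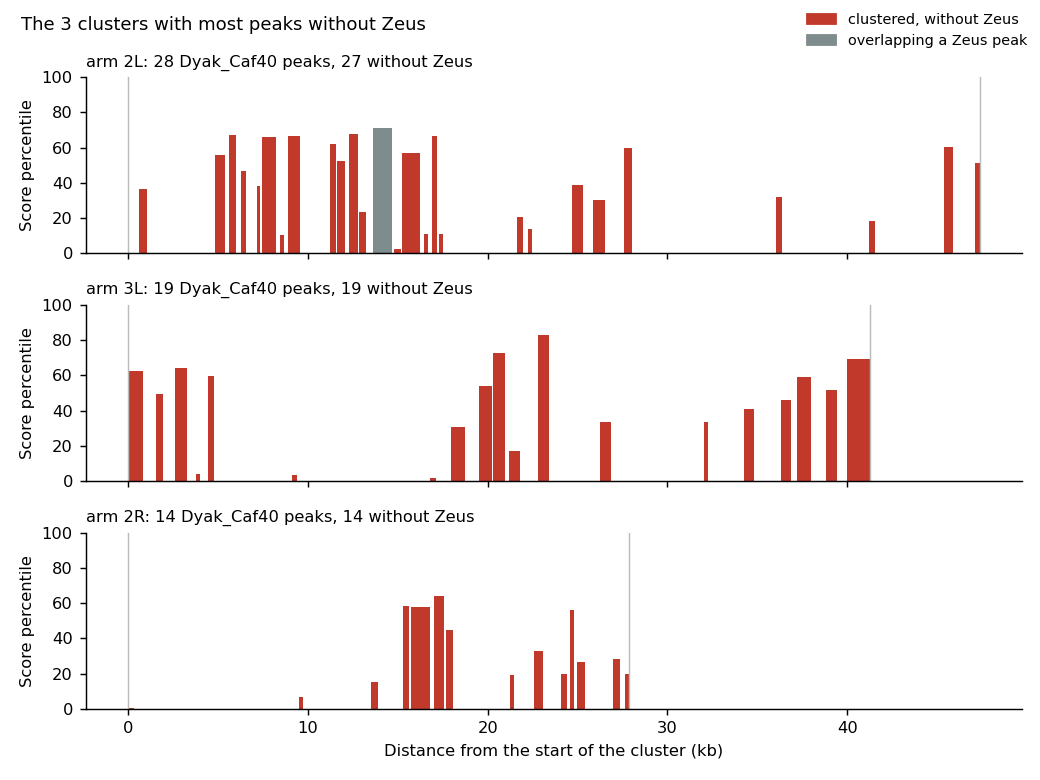
The 3 clusters with most members, drawn to scale from the start of each cluster (kb), with each Dyak_Caf40 peak as a bar whose width is that of the peak and whose height is its score percentile among autosomal Dyak_Caf40 peaks. Vertical lines mark the ends of each cluster. The cluster on 2L holds 28 peaks in 47.4 kb with 1 Zeus-overlapped peak (grey), and the clusters on 3L and 2R hold 19 and 14 peaks without any.

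Further clusters were smaller. On 2L at 184888 to 198449, 12 members lay in 13.6 kb and covered 43.4% of it. On 3L at 8579689 to 8597771, 10 members lay in 18.1 kb and covered 29.4%. A looser group of 10 members, on 3L at 1549680 to 1569236, covered 13.9% of 19.6 kb, and its best peak ranked 182. The smallest gap between members was in a cluster on 2R at 11651133 to 11656015, where 6 members covered 73.7% of 4.88 kb. Here the peaks at 11653168 to 11653695 and 11653746 to 11654203 were 50 bp apart, and those at 11654312 to 11655728 and 11655780 to 11656015 were 51 bp apart. Other pairs on 2L and 3L also had a gap of 51 bp, and none had a smaller gap than 50 bp. The widest member, at 2922 bp, lay on 3L at 1789705 to 1792626, in a cluster of 4 without Zeus, and ranked 530.

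The score, deposited without a stated scale, was low for members and isolated peaks alike beside Zeus-overlapped peaks. The rule leaves Zeus-overlapped peaks out of both classes. A median below the middle of the Caf40 list therefore follows in part from the rule. Clustered peaks had scores of 2.69 to 125.55 with a median of 6.90, isolated peaks 2.55 to 226.38 with a median of 7.21, and Zeus-overlapped peaks 6.13 to 1450.35 with a median of 107.2. On the percentile scale, set over the 1581 autosomal Caf40 peaks, the medians were 41.3 for clustered, 42.9 for isolated and 91.4 for Zeus-overlapped peaks. Clustered and isolated peaks thus had similar middles and low ends. The lowest-scoring 25% of autosomal peaks held 276 clustered peaks, 30.3% (27.4 to 33.4), and 118 isolated peaks, 29.5% (25.2 to 34.1). Between the middle and the very top they differed more. The top-scoring 10% held hardly any of either class. It held 2 clustered peaks, 0.220% (0.0602 to 0.797), and 1 isolated peak, 0.25% (0.0441 to 1.40), with overlapping intervals. The top-scoring 25% held 75 clustered peaks, 8.23% (6.62 to 10.2), against 69 isolated peaks, 17.25% (13.9 to 21.3), and 251 Zeus-overlapped peaks, 93.0% (89.3 to 95.4). With only the highest-scoring member of each cluster counted, 66 of 306 were in the top-scoring 25%, 21.6% (17.3 to 26.5). Such a peak was picked for its score, so this share is not on the same footing as that of isolated peaks.

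Members were intermediate in width. Clustered peaks had a median width of 327 bp, against 299.5 bp for isolated and 416.5 bp for Zeus-overlapped peaks. Of the clustered peaks, 432 were wider than the median of all autosomal Caf40 peaks, 47.4% (44.2 to 50.7), against 150 isolated peaks, 37.5% (32.9 to 42.3), and 204 Zeus-overlapped peaks, 75.6% (70.1 to 80.3). For the share wider than the median, the intervals of clustered and isolated peaks did not overlap. Widths over 1 kb occurred in 54 clustered peaks, 5.93% (4.57 to 7.65), 14 isolated peaks, 3.50% (2.10 to 5.79), and 36 Zeus-overlapped peaks, 13.3% (9.79 to 17.9), and here the intervals of clustered and isolated peaks overlapped. Across the peaks of a class, score and width had a Spearman's rho of 0.42 for the 911 clustered, 0.24 for the 400 isolated and -0.0001 for the 270 Zeus-overlapped peaks. These describe peaks of 1 list that share libraries and a peak caller, and peaks are not replicates.

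**Figure D3:**
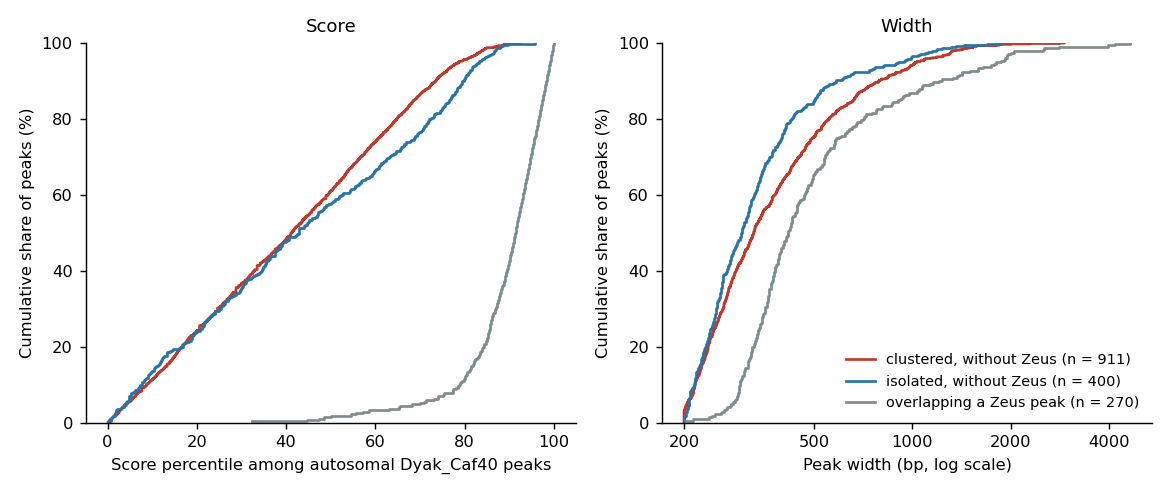
Cumulative share of peaks (%) by score percentile among autosomal Dyak_Caf40 peaks (left) and by peak width (bp, log scale, right), for clustered, isolated and Zeus-overlapped peaks. The curves of clustered and isolated peaks run together up to their medians of 41.3 and 42.9 and part above, and in width the clustered peaks (median 327 bp) lie between the isolated (299.5 bp) and the Zeus-overlapped peaks (416.5 bp).

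The 5 members with the highest scores lay in clusters of 2 to 4 peaks without Zeus. The first, on 3L at 9817378 to 9817704, had rank 119 and was the first of 3 peaks in 3.58 kb. It was followed by peaks on 2L at 10387882 to 10388183 (rank 153), on 2R at 1551224 to 1551548 (rank 167), on 2R at 1148073 to 1148374 (rank 170) and on 2L at 6480591 to 6481015 (rank 176). All of these were 302 to 425 bp wide. On 3R the highest member was of another kind, a peak of 1856 bp at 8328558 to 8330413 with rank 181, in a cluster whose other 2 peaks overlapped Dmel_Zeus. By cluster size, the share of members in the top-scoring 25% was 8.90% (6.10 to 12.8) in clusters of 2 peaks, 12.1% (8.28 to 17.4) in those of 3, 7.73% (4.66 to 12.6) in those of 4 to 5, 6.45% (3.31 to 12.2) in those of 6 to 9 and 3.15% (1.23 to 7.82) in those of 10 or more. The intervals of neighbouring sizes overlapped, while those of clusters of 3 and of 10 or more did not. The median percentile ran from 38.4 in the clusters of 10 or more to 43.4 in those of 3.

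**Figure D4:**
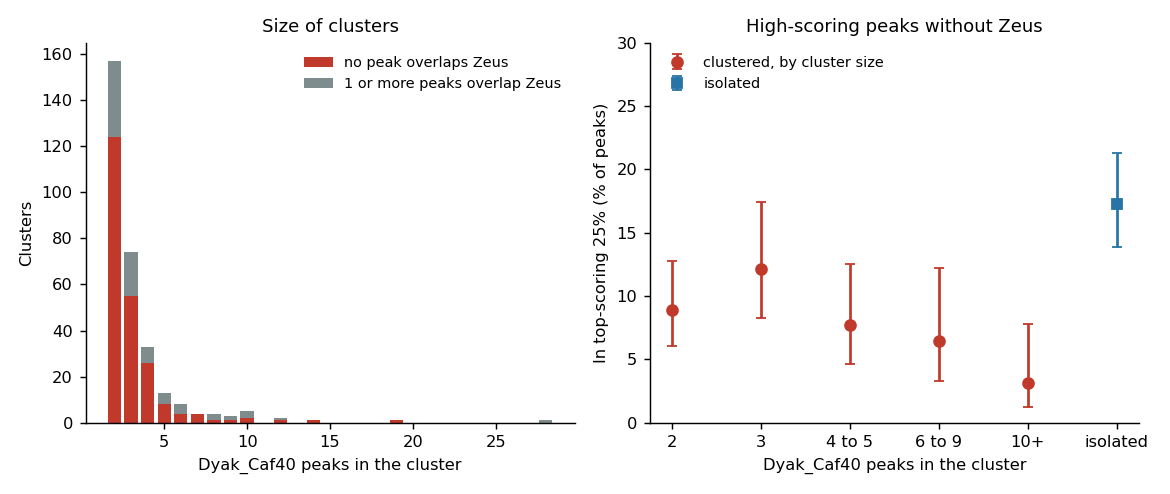
Left, number of clusters by the Dyak_Caf40 peaks they hold, split by whether a peak of the cluster overlaps Zeus. Right, share of peaks without Zeus in the top-scoring 25% of autosomal Dyak_Caf40 peaks (%, with 95% Wilson intervals) by cluster size and for isolated peaks. Pairs are the commonest clusters (157 of 306), and the share is 3.15% in clusters of 10 or more peaks and 17.25% for isolated peaks.

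Members at the ends and in the interior of clusters had close scores. In clusters of 3 or more peaks, 362 members were interior and 268 stood at an end. The interior members had a median percentile of 41.7 and those at an end 40.7. Of the interior members 26 were in the top-scoring 25%, 7.18% (4.95 to 10.3), and of the end members 24, 8.96% (6.09 to 13.0). The median width was 366.5 bp for interior and 292.5 bp for end members. The scores of adjacent members were only weakly related. For 246 adjacent pairs of members with a gap under 500 bp, Spearman's rho between their scores was 0.12 and the median difference was 20.5 percentile points. For 177 pairs with a gap of 2 to 10 kb, rho was 0.029 and the median difference 24.98 points. Pairs of 1 cluster share peaks with each other, and the rho values are descriptions.

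About 1 cluster in 4 also held a Caf40 peak that overlapped Zeus. This was so for 78 of 306 clusters, 25.5% (20.9 to 30.7), and 220 members, 24.1% (21.5 to 27.0), lay in them. These clusters contained 92 Zeus-overlapped Caf40 peaks, of which 90 overlapped Dmel_Zeus and 5 Dsim_Zeus, and 65 clusters contained just 1. The Zeus-overlapped peak was the highest-scoring Caf40 peak of its cluster in 73 of the 78 clusters, 93.6% (85.9 to 97.2). Of the 220 members, 210 scored lower than the nearest Zeus-overlapped peak. With Zeus peaks taken only from the higher-scoring 50% of each Zeus list, the share of members in such clusters was 10.3%. That Zeus-overlapped peaks score high was known before these counts were made, and the counts are no independent support for it. Members in such clusters had a median percentile of 46.6, against 40.1 for the 691 members of clusters without Zeus. Their share in the top-scoring 25% was 11.8% (8.19 to 16.8), against 7.09% (5.41 to 9.25), and the intervals overlapped. Their median width was 306 bp, against 331 bp.

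In the 78 clusters, members lay a median of 4288.5 bp from the nearest Zeus-overlapped Caf40 peak. For 77 of the 911 members, 8.45%, the nearest Caf40 neighbour was itself Zeus-overlapped. The median percentile of members was 42.7 within 500 bp (26 members), 57.1 at 500 to 1000 bp (15 members), 49.6 at 1 to 2 kb (27 members), 44.0 at 2 to 5 kb (51 members), 47.3 at 5 to 10 kb (66 members) and 36.7 beyond 10 kb (35 members). The order of these medians did not follow distance.

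Members were set against the Zeus lists directly as well. A Dmel_Zeus peak lay within 10 kb of 183 members, 20.1% (17.6 to 22.8), and of 0 of the 400 isolated peaks, for which 3 counts of the total give an upper limit of 0.75% and the Wilson interval one of 0.951%. Since 265 of 269 autosomal Dmel_Zeus peaks overlapped a Caf40 peak, an isolated peak could hardly lie near one, and the rule fixes most of this difference. The closest members were on 2L at 4997815 to 4998213, 108 bp from a Dmel_Zeus peak, and on 3L at 19439661 to 19439960, 165 bp away, with ranks 1380 and 216. A Dsim_Zeus peak lay within 10 kb of 32 members, 3.51% (2.50 to 4.92), and of 18 isolated peaks, 4.50% (2.87 to 7.0). The closest members were on 3L at 12912773 to 12912974, 182 bp from a Dsim_Zeus peak, and on 3R at 23617993 to 23618265, 499 bp away. The median distance to a Dsim_Zeus peak was 233.5 kb for clustered and 182.1 kb for isolated peaks. Of 473 autosomal Dsim_Zeus peaks, 20 lay inside the span of a cluster, 4.23%, and of 269 Dmel_Zeus peaks 94, 34.9%. The clusters spanned 1.94% of the autosomal arms. The 20 Dsim_Zeus peaks lay in only 6 clusters, and the 94 Dmel_Zeus peaks in 76. A cluster on 2L, at 21469611 to 21500367, alone held 6 of the 20, so the share for Dsim_Zeus rests on few places. Because clusters are made of Caf40 peaks, the share for Dmel_Zeus follows in part from the overlap of its peaks with Caf40 peaks.

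Zeus peaks could also lie in the gaps of a cluster without meeting a Caf40 peak. Among the 228 clusters without a Zeus-overlapped peak, 0 held a Dmel_Zeus peak in a gap and 2 held Dsim_Zeus peaks. Since 265 of 269 autosomal Dmel_Zeus peaks overlapped a Caf40 peak, hardly any could lie in a gap, and the 0 is no result about these clusters. The 2 clusters with Dsim_Zeus peaks were singled out after their values had been seen. The first, on 2L at 21469611 to 21500367, held 5 Caf40 members and 6 Dsim_Zeus peaks in 30.8 kb. The members began at 21469611, 21476969, 21487134, 21497239 and 21499981, so that successive starts were 7358, 10165, 10105 and 2742 bp apart. The Dsim_Zeus peaks between them began at 21473533, 21478560, 21483683, 21488943, 21493172 and 21499058, or 5027, 5123, 5260, 4229 and 5886 bp apart. With Dsim_Zeus peaks outside the cluster counted as well, every member lay 593 to 1583 bp from one, and no pair touched. Members of this cluster were 224 to 387 bp wide and covered the smallest part of its span of any cluster, 4.63%. In the second, on 3R at 8291648 to 8308254, 3 members and 2 Dsim_Zeus peaks alternated. Its members were 2647 to 3942 bp from the nearest Dsim_Zeus peak.

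Members lay on every autosomal arm. There were 180 members in 57 clusters on 2L, 212 in 72 on 2R, 238 in 76 on 3L, 253 in 92 on 3R and 28 in 9 on chromosome 4. Per Mb this was 7.83 on 2L, 10.1 on 2R, 9.71 on 3L, 9.07 on 3R and 20.8 on chromosome 4, the small dot chromosome that is largely packed as heterochromatin yet carries active genes. Caf40 peaks of all classes were dense on chromosome 4 too, with 62 in 1.35 Mb, against 319 in 23.0 Mb on 2L. X, outside the rule, held 143 peaks of the same kind, 6.38 per Mb. Among Caf40 peaks without Zeus, the clustered share was 66.9% (61.1 to 72.3) on 2L, 69.1% (63.7 to 74.0) on 2R, 71.5% (66.4 to 76.1) on 3L, 69.5% (64.6 to 74.0) on 3R, 73.7% (58.0 to 85.0) on chromosome 4 and 65.3% (58.8 to 71.3) on X. These intervals all overlapped. Of all Caf40 peaks, Zeus-overlapped peaks included, members were 45.2% (33.4 to 57.5) on chromosome 4. On the large arms they were 56.4% to 60.7%, with intervals that overlapped that of chromosome 4. The median score percentile of members was 57.6 on chromosome 4, over 28 members, against 37.5 to 44.1 on the other arms.

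On chromosome 4, the member with the highest score was at 150318 to 150606, with rank 198, in a cluster of 3 without Zeus. The cluster richest in members, at 768444 to 797427, had 12 Caf40 peaks, of which 3 overlapped Dmel_Zeus and 9 were members with ranks from 652 to 1263. A denser one, at 1081430 to 1097370, held 8 peaks over 42.5% of 15.9 kb, of which 6 were members. Its widest member, of 1842 bp at 1090001 to 1091842, ranked 432.

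Along the large arms, members were unevenly spread. Counted per 1 Mb from the centromere-proximal end, 98 windows held 0 to 48 members with a median of 7.5, and 12 held none, against 0 to 10 isolated peaks with a median of 4. The last window of each arm was shorter than 1 Mb. That of 2L, at 23 to 24 Mb on an arm of 23.0008 Mb, had almost no length and is among the 12. The fullest window, 22 to 23 Mb out on 3L, held 48 members in 8 clusters, among them the 19 of the cluster described above. Windows with 37 members followed at 17 to 18 Mb on 2L, of which 27 were in the cluster of 28 peaks, and at 15 to 16 Mb on 3L. The fullest windows on 2R (24 members) and 3R (31 members) were 9 to 10 Mb and 5 to 6 Mb out. The window at the centromere-proximal end held 7 members on 2L, 7 on 2R, 2 on 3L and 18 on 3R, on both sides of the median of all windows. Within this 1 Mb lay 34 of 883 members on the large arms, 3.85% (2.77 to 5.33), against 27 of 390 isolated peaks, 6.92% (4.80 to 9.89), 29 of 246 Zeus-overlapped peaks, 11.8% (8.33 to 16.4), and 90 of 1519 Caf40 peaks of all classes, 5.92%. The intervals of clustered and isolated peaks overlapped. With 1 peak per cluster the share was 6.06% (3.87 to 9.38), close to that of isolated peaks.

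**Figure D5:**
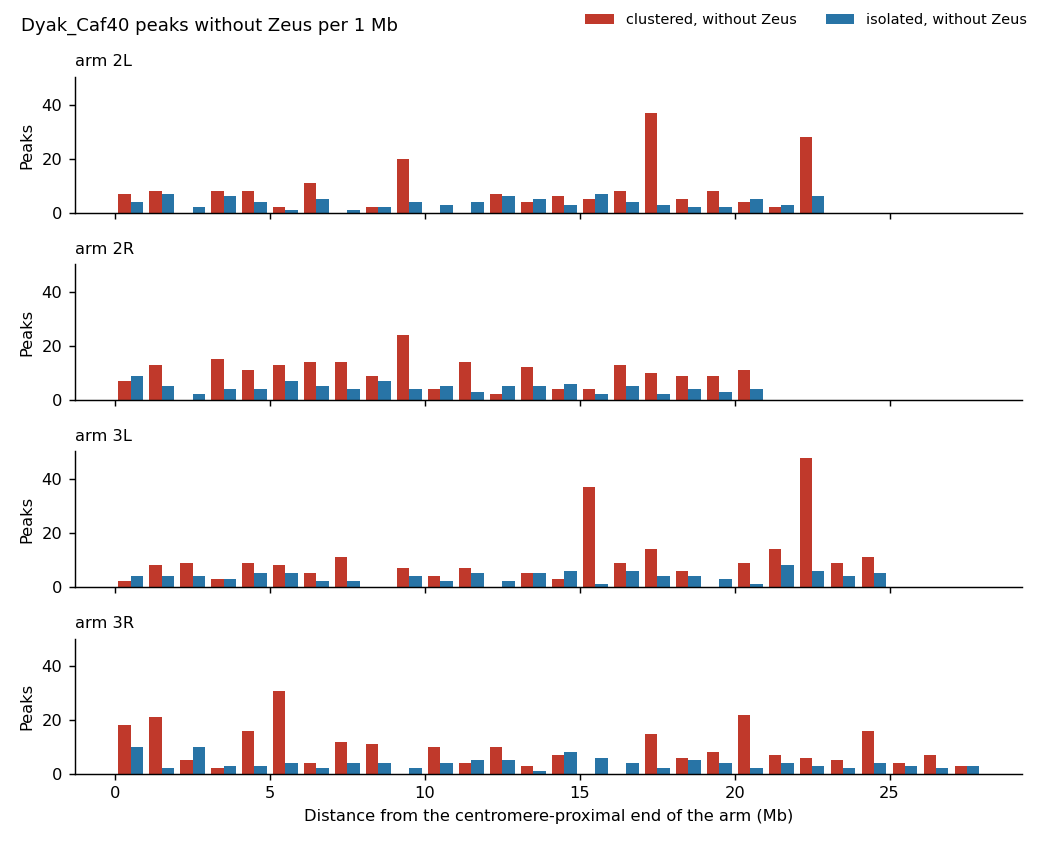
Number of clustered and of isolated Dyak_Caf40 peaks without Zeus per 1 Mb window, by distance from the centromere-proximal end of arms 2L, 2R, 3L and 3R (Mb). Clustered peaks reach 48 in the fullest window, on 3L, and 0 in 12 windows, and isolated peaks never exceed 10. The last window of each arm is shorter than 1 Mb, and that of 2L, among the 12, has almost no length.

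The peak names and repeated lines gave information on the calls behind the list. Names were numbered in order along each arm, so a skipped number stands for a name that the list does not hold. Between adjacent autosomal Caf40 peaks under 10 kb apart, 48 of 715 steps skipped a number, 6.71%. These steps include those in chains without a member. Between peaks 10 kb or more apart, 349 of 861 steps did, 40.5%. A longer gap has more room for other calls. At gaps of 5 to 10 kb, 17 of 104 steps skipped, 16.3%, and at 10 to 20 kb 32 of 133, 24.1%. A peak stood on more than 1 line for 64 of 911 clustered peaks, 7.03% (5.54 to 8.87), for 18 of 400 isolated peaks, 4.50% (2.87 to 7.0), and for 5 of 270 Zeus-overlapped peaks, 1.85% (0.794 to 4.26). At most 3 lines held the same peak.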

How the data were processed

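Reads from single-end libraries had been aligned with BWA to UCSC dm3 and peaks called with MACS2, and peaks shared by the best pair of replicates were retained, as the methods of the study describe. Chromatin without antibody was sequenced as the input of each protein. The replicates chosen, and whether the peak caller was given the inputs, are not stated in the sources used here. The labels list mm9 as a build, but the sequence names of the files are those of dm3. The authors deposited 1 peak list per protein, assigned here by the letter of its line code, with position, name and a score of unstated scale, used here only to rank peaks of the Dyak_Caf40 list. Read depth behind a peak is unknown.

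The lists held 1964 distinct Dyak_Caf40 peaks on 2076 lines, 378 Dmel_Zeus peaks on 393 and 1091 Dsim_Zeus peaks on 3073, and each was counted once. Peaks overlapped when they shared 1 bp. Clusters were chains of Dyak_Caf40 peaks with gaps under 10 kb. Arm ends were the highest peak end in any list. Python 3.11.15 with pandas 2.3.3 was used, and interval functions were checked against bedtools 2.31.1 and on simulated data. Alternatives changed the gap, the Zeus overlap, the peaks entered and the unit. Members, lists and named peaks were chosen with earlier results of these data known. The rule for named peaks took the 5 members with the highest scores, the highest on each arm, the peaks of the 3 clusters with most members, the closest pairs, the peaks on either side of the gap limit, the widest member and those closest to each Zeus list. Others were picked as examples after their values were seen. No genome or annotation on dm3 was used, so sequences, the CAZAM motif, start sites and genes were not analysed here.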

Additional observations from a re-analysis of the deposited data

How the results depend on the processing

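The number of members was 815 with a gap of 5 kb, 1024 with 20 kb, 871 without any Zeus peak within 1 kb and 977 with every line counted. It was 235 in the higher-scoring 50% of the Caf40 list and 306 with 1 peak per cluster. In that higher-scoring 50%, the share in clusters with a Zeus-overlapped peak was 37.9%, the share in the top-scoring 25% of the peaks kept 1.70%, the share of wide peaks 57.4% and the share within 1 Mb of the centromere-proximal end 5.48%. With 1 peak per cluster, the highest-scoring, 21.6% were in the top-scoring 25%, 58.8% were wide and 6.06% lay in that 1 Mb. The share in clusters with a Zeus-overlapped peak was 20% at a gap of 5 kb, 31.2% at 20 kb and 10.3% with the higher-scoring 50% of each Zeus list. With these shorter Zeus lists 13.9% of members were in the top-scoring 25%. The top-scoring 10% held 0.220% of members, and 9.51% were less than 2 Mb from that end. Without the 3 clusters with most members, an alternative chosen after seeing the data, 851 members were left, 8.70% of them in the top-scoring 25%. These values are for other sets of peaks by construction, and further causes were not tested. Every other alternative that was run left the shares inside the 95% intervals given in the report. The motif and start-site alternatives were not run, since neither was analysed here. No paired analysis was possible because the lists hold no value per library. The number of reads behind a peak is unknown, so a Zeus peak that is absent from a list may lie under its calling threshold.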
